A study of Rattus norvegicus with 34 samples.

Results

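Retinal RNA of 6 untreated PKD rats was compared with that of 6 untreated SD rats, which are 12 of the 34 samples of the series. The 12 rats were chosen by strain and by the absence of an injection. PKD rats were male animals homozygous for TGR(CMV-PKD2[1/703]HA), labelled PKD2(HA-1/703-CMV-247), a transgene in which the ubiquitously active CMV promoter drives a truncated, HA-tagged polycystin-2. SD rats were Sprague Dawley animals, the background strain. All 12 rats were 9 weeks old and uninjected. The labels do not say whether PKD and SD rats shared litters, cages or cards, so litter, card and strain cannot be told apart. Whole retinae were used, in which fewer cells of a type and less RNA per cell cannot be told apart. The groups are named by the animal numbers of the Cq table, which the study's sample list assigns to groups.

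PKD rats lose photoreceptors by degeneration, and the comparison asks which of the selected genes differ in the retina at an age when the disease is under way. Stressed photoreceptors are known to release endothelin 2, encoded by *Edn2*, which acts on receptors of Müller cells, the radial glia that span the retina. Müller cells answer injury with gliosis, in which intermediate filament protein (*Gfap*) and the survival factor *Fgf2* are raised, often through cytokines of the IL-6 family that act by STAT3 and are held back by *Socs3*. Microglia, the resident macrophages of the retina, then move toward the photoreceptor layer, where they clear debris and produce complement, cytokines and their own receptors. The card held genes for each of these steps, but none that defines photoreceptors, other neurons or the retina as such, so the labelled tissue could not be checked against such markers.

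Expression was measured as Cq, the PCR cycle at which the signal of a well crosses the threshold, so that a lower Cq means more RNA. The 576 wells of the 12 rats held 44 specific and 4 reference genes, with 1 well per gene and rat. Of these wells, 27 had no Cq, and the others lay between 5.53 and 35.16. Expression is given as the Cq of a gene subtracted from the average of the reference wells, *18S*, *B2m*, *Mrpl19*, and *Ywhaz*. This is a log2 scale at full amplification efficiency, and the SD group mean was subtracted, so that 0 is the SD mean and 1 is a doubling. A gene was tested with limma when both groups had at least 3 Cq values, and the adjusted p-values below are those of limma with Benjamini–Hochberg adjustment over the 41 genes tested. Limma took the spread from 23 rats in 4 groups, with injected PKD rats among them. Permutation p-values are two-sided, exact and unadjusted, unless called adjusted. The smallest that 6 against 6 rats allow is 0.00216.

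Expression was higher in PKD rats for all 4 genes of reactive glia and for 3 of 5 genes of photoreceptor stress and neurotrophic support, while 0 of the 4 pro-inflammatory genes, the 3 Fc receptors, and the 3 scavenger and mannose receptors passed the limma test, with 1 of these 10 genes, *Fcer2*, at an unadjusted p under 0.05. At an adjusted p of 0.05, 15 of the 41 genes passed (36.6%), 14 (34.1%) higher in PKD rats and 1 (2.44%) lower. In 6 of the 41 genes (14.6%), namely *Edn2*, *Socs3*, *Fgf2*, *Gfap*, *Lcn2*, and *Tnfrsf12a*, all PKD rats lay above all SD rats. The median log2 fold change over the 41 genes was 0.44, and 32 of the 41 estimates were above 0. This median was 0.22 without SD rat 93 and lay between 0.35 and 0.61 with any other single rat left out. Since the card was a selection of 44 genes, these shares describe the card and not the transcriptome. The gene lists were drawn up with earlier results of these data known, so counts within a list are descriptions.

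**Figure D1:**
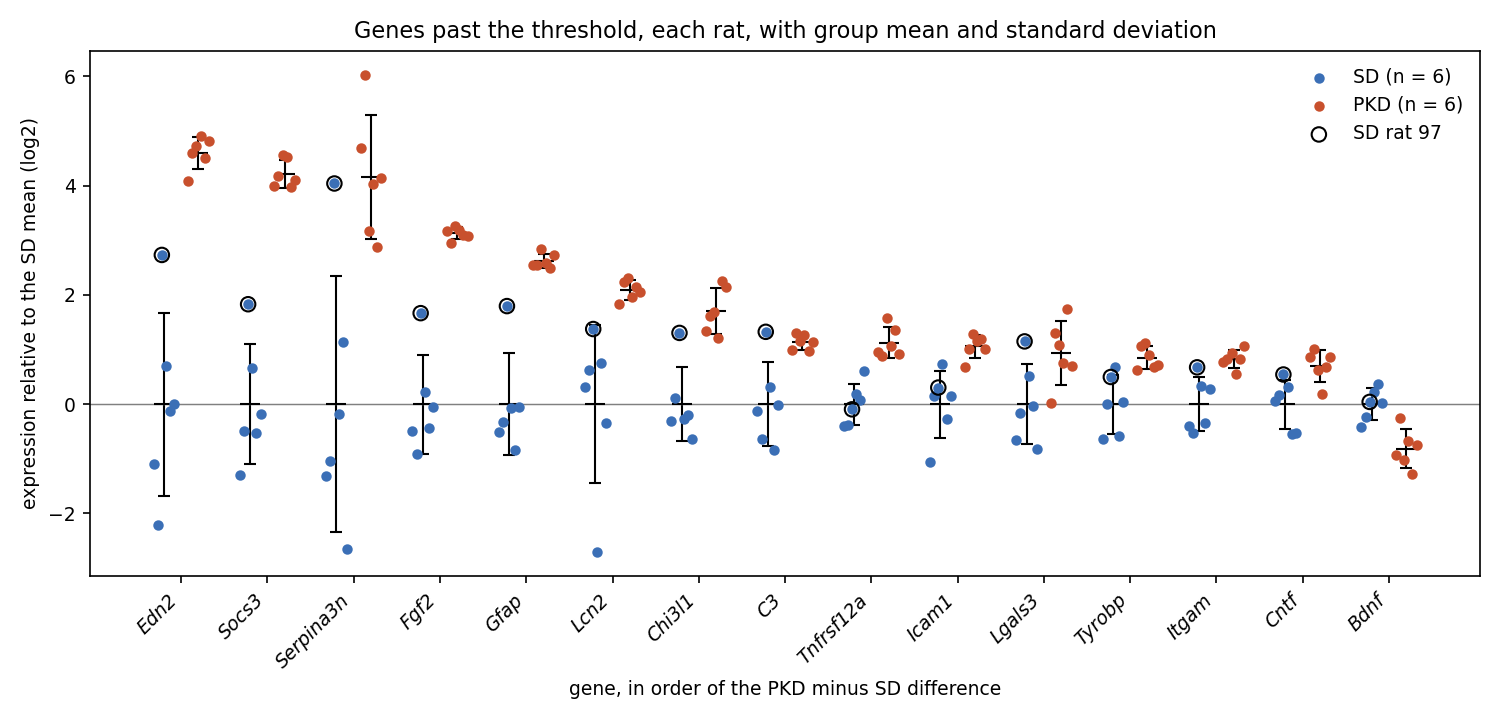
Expression of the 15 genes that passed the test, in log2 units with the SD mean set to 0 (vertical axis), with 1 point per rat for 6 SD and 6 PKD rats and the group mean and standard deviation beside them. The SD rats of *Edn2* spanned -2.21 to 2.73 and the PKD rats 4.08 to 4.90, and *Bdnf* is the gene with lower values in PKD rats.

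The starts of the genes were compared for the letters that STAT proteins bind, because *Socs3* and *Gfap* are textbook targets of STAT3 and were among the genes that rose. RefSeq windows (build GRCr8, 250 bases before to 50 after each start) were found for 32 of the 44 specific genes, in 41 windows, and *Socs3* and *Edn2* had none. The letters TTCNNNGAA, which read the same on both strands, were in 6 of the 13 genes that passed and had a window, and in 2 of the 18 genes that did not pass and had one. The window of *Gfap* did not hold them. Counted by window, since a gene can have several, they were in 6 of the 18 windows of genes that passed. They were in 2 of the 22 windows of genes that did not pass, and in 8.87% of all 33469 windows. The 6 genes were *Serpina3n*, *Fgf2*, *Tnfrsf12a*, *Icam1*, *Itgam*, and *Bdnf*, of which the last fell in PKD rats, and the 2 genes that did not pass were *C5ar2* and *Sphk1*. For NF-kappa-B, only a narrow, fixed string of letters was searched, on both strands. This string was in 0.362% of all windows and, among the card's genes, in that of *Il6*, 68 bases before the start. Other forms of the NF-kappa-B site were not searched, so a window without this string may still hold such a site. These matches describe the letters of the windows, and no binding was measured. The 250 bases before the start are shown for 3 genes that rose by different amounts, 5′ to 3′ on the strand of the gene, with the match in capitals 123, 128, and 136 bases before the start.
Serpina3n, chr6:129088142-129088391, plus strand: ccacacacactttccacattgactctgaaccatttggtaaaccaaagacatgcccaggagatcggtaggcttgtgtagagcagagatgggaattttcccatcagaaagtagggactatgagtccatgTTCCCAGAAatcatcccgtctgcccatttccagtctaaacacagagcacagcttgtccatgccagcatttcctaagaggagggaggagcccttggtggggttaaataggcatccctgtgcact
Fgf2, chr2:122164204-122164453, plus strand: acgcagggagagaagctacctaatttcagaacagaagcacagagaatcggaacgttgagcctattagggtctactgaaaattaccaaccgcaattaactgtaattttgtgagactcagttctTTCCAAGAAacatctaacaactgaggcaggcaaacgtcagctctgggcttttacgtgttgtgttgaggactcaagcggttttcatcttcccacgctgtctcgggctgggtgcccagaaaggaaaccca
Tnfrsf12a, chr10:13213649-13213898, minus strand: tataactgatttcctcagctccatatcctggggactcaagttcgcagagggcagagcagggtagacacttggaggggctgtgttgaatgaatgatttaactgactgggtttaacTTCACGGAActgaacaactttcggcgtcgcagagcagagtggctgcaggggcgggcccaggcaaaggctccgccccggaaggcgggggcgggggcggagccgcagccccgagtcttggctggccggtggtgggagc

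Among the genes of photoreceptor stress and neurotrophic support, 3 of 5 rose, beside 34.1% of all tested genes, 1 fell and 1 did not pass. The median log2 fold change was 0.71, beside 0.44 over all tested genes. *Edn2* was expressed at -2.21, -0.064, and 2.73 (lowest, median, and highest) in the SD rats and at 4.08, 4.66, and 4.90 in the PKD rats. The 6 PKD rats lay within less than 1 log2 unit of each other and above all SD rats, which were spread widely. Its log2 fold change was 4.60 (adjusted p = 8.97e-09, standard error 0.477), a 24.3-fold higher level. In cycles, *Edn2* was reached at 25.1 to 29.9 in SD rats and 23.1 to 23.9 in PKD rats, so the difference was visible before any reference gene was subtracted. *Fgf2*, the basic fibroblast growth factor that protects photoreceptors, was at -0.91, -0.24, and 1.67 in SD rats and at 2.96, 3.14, and 3.27 in PKD rats. The groups did not overlap, with a log2 fold change of 3.13 (adjusted p = 1.86e-09, standard error 0.294), which is 8.75-fold. *Cntf*, a cytokine of the IL-6 family that supports neurons and activates Müller cells, was at -0.55, 0.11, and 0.54 in SD rats and at 0.18, 0.77, and 1.01 in PKD rats. The groups of *Cntf* overlapped, with a log2 fold change of 0.71 (adjusted p = 0.0129, standard error 0.225).

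*Bdnf*, the brain-derived neurotrophic factor, was the 1 gene of the 41 that fell. It was at -0.41, 0.030, and 0.38 in SD rats and at -1.28, -0.83, and -0.25 in PKD rats. Its log2 fold change was -0.81 (adjusted p = 0.0121, standard error 0.255), a level of 0.569 of that in SD rats, and the exact permutation test gave p = 0.00433. The groups overlapped in the range from -0.41 to -0.25. The call of *Bdnf* depended on *B2m* as a reference gene: without *B2m*, its log2 fold change was -0.64 (adjusted p = 0.0562). *Igf1*, insulin-like growth factor 1, did not pass, with -0.23 and a 95% interval from -0.74 to 0.28.

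All 4 genes of reactive glia rose, beside 34.1% of all tested genes, with a median log2 fold change of 2.36 beside 0.44 over the 41 genes. *Gfap*, the filament protein of gliotic Müller cells and astrocytes, was at -0.84, -0.20, and 1.80 in SD rats and at 2.49, 2.57, and 2.83 in PKD rats. No PKD rat overlapped with an SD rat, and the log2 fold change was 2.62 (adjusted p = 4.61e-08, standard error 0.300), which is 6.15-fold. *Serpina3n*, an inhibitor of serine proteases secreted by reactive astrocytes, was at -2.65, -0.61, and 4.04 in SD rats and at 2.87, 4.08, and 6.03 in PKD rats. It had a large log2 fold change, 4.15, but also the widest spread among the 15 genes that passed, so that its standard error was 0.797 (adjusted p = 0.000128) and the groups overlapped. The 95% interval of *Serpina3n* ran from 2.51 to 5.80.

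*Lcn2*, lipocalin 2, which binds iron-loaded siderophores, was at -2.71, 0.47, and 1.38 in SD rats and at 1.83, 2.10, and 2.31 in PKD rats. All PKD rats lay above all SD rats, with a log2 fold change of 2.09 (adjusted p = 0.000366, standard error 0.440). *Chi3l1*, a chitinase-like protein of reactive astrocytes and macrophages, was at -0.63, -0.24, and 1.30 in SD rats and at 1.21, 1.65, and 2.25 in PKD rats. The groups of *Chi3l1* met at the edge, where the highest SD rat was just above the lowest PKD rat, and the log2 fold change was 1.71 (adjusted p = 1.14e-05, standard error 0.271).

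The card held a cytokine of the IL-6 axis and its inhibitor, of which the inhibitor rose. *Socs3*, which is induced by STAT3 and blocks its activation, was at -1.29, -0.33, and 1.83 in SD rats and at 3.97, 4.14, and 4.56 in PKD rats. The groups were separated by over 2 log2 units, and the log2 fold change was 4.22 (adjusted p = 1.38e-10, standard error 0.340), which is 18.7-fold. This was the smallest adjusted p of the 41 genes. *Il6* itself was measured late, at a Cq of 31.9 to 35.2 in SD rats and 31.7 to 32.7 in PKD rats. It was at -1.78, 0.42, and 1.06 in SD rats and at 0.53, 0.70, and 1.52 in PKD rats, and did not pass, with a log2 fold change of 0.91 (95% interval 0.13 to 1.69, adjusted p = 0.0623). For *Il6*, the exact permutation test gave p = 0.0909 (adjusted p = 0.207), and a limma fit of the 2 groups alone an adjusted p of 0.131. *Il6* passed when SD rat 93 (1.04, adjusted p = 0.0377), 97 (1.03, 0.0363), or 99 (1.12, 0.0183) was left out. Without the SD rat whose Cq was 35.2, it was 0.55 (adjusted p = 0.223).

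**Figure D2:**
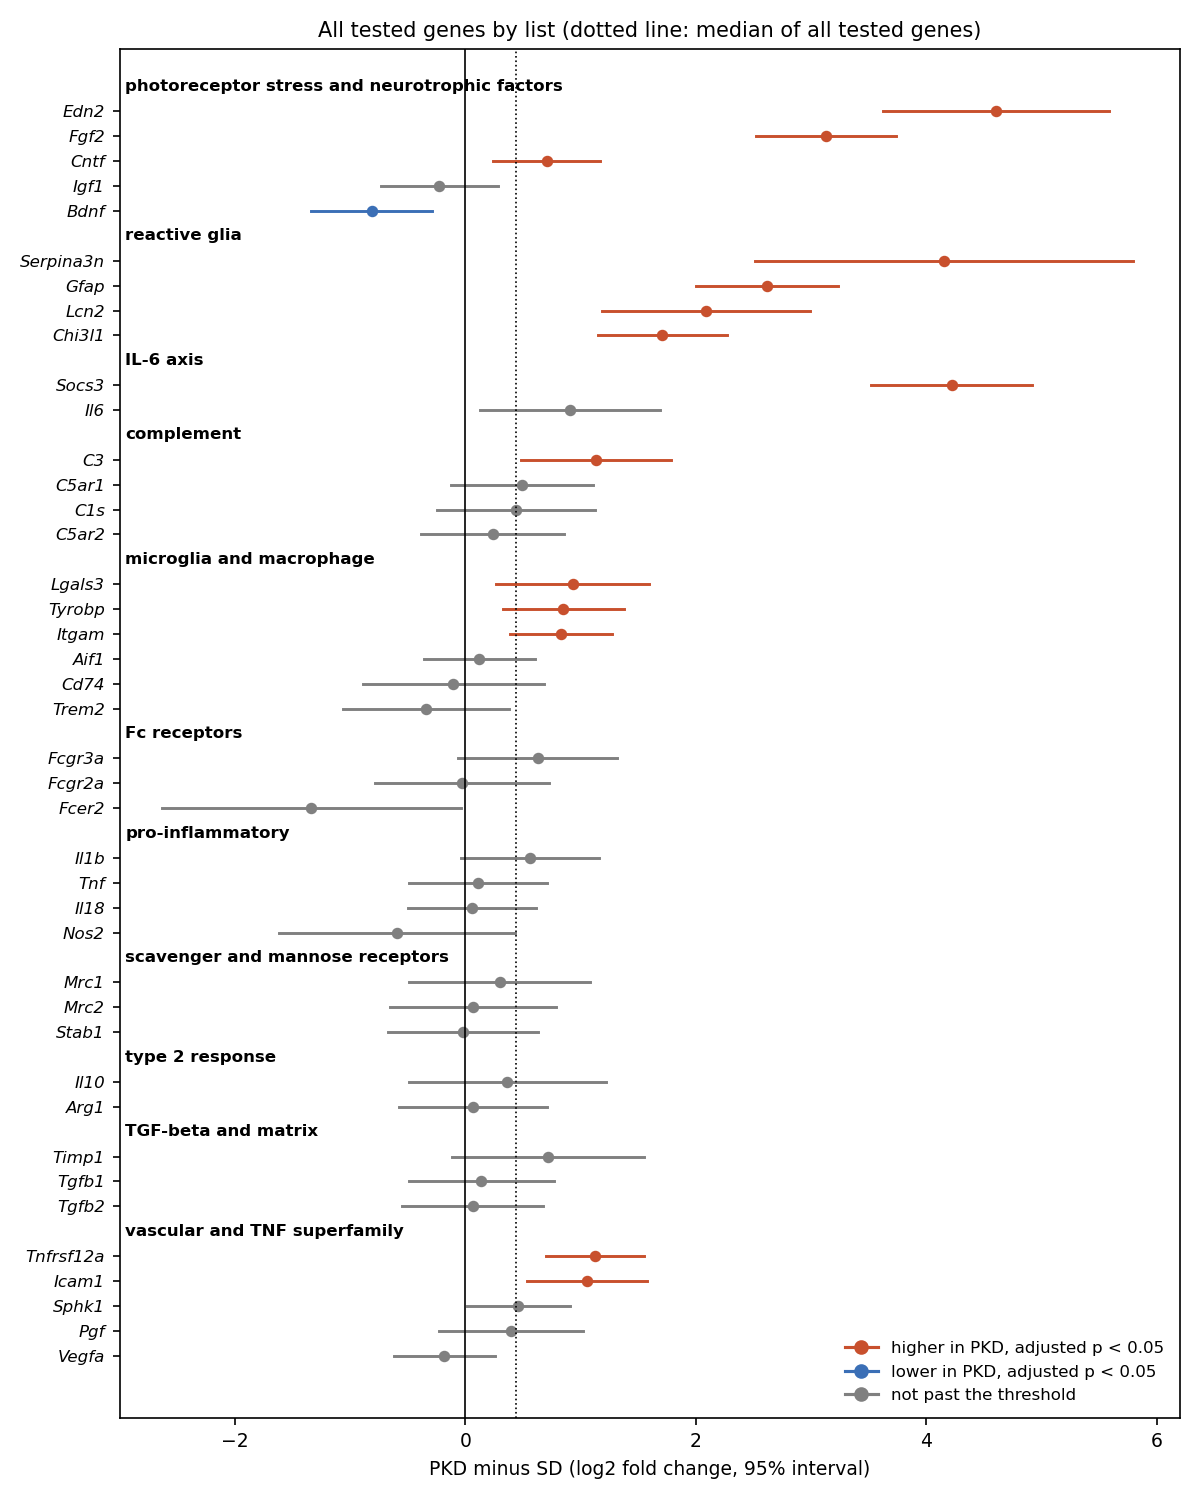
Log2 fold change of PKD over SD rats (horizontal axis) with its 95% interval from limma for the 41 genes tested, grouped by role. Red points were higher and the blue point lower in PKD rats at an adjusted p of 0.05, gray points did not pass, and the dotted line is the median of the 41 genes. Genes of reactive glia lay at 1.71 and above, while every gene of the Fc receptor, pro-inflammatory, scavenger receptor, type 2 and TGF-beta groups is gray.

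Of the 4 complement genes, 1 rose, beside 34.1% of all tested genes, and their median log2 fold change was 0.47, near that of the 41 genes. *C3*, the component on which the complement pathways converge, was at -0.85, -0.077, and 1.32 in SD rats and at 0.97, 1.15, and 1.30 in PKD rats. Its log2 fold change was 1.13 (adjusted p = 0.00555, standard error 0.318), and the highest SD rat was above all PKD rats. *C1s*, a protease of the classical pathway, was estimated at 0.44 (95% interval -0.24 to 1.13). The receptors of the C5a fragment, *C5ar1* and *C5ar2*, were estimated at 0.49 (-0.12 to 1.11) and 0.24 (-0.39 to 0.86). These 3 estimates were above 0, and each interval included 0.

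Of the 6 genes of microglia and macrophages, 3 rose, by less than 1 log2 unit each, beside 34.1% of all tested genes. Their median log2 fold change was 0.48, near the 0.44 over all. *Lgals3*, galectin-3 of activated phagocytes, was at -0.83, -0.092, and 1.15 in SD rats and at 0.017, 0.92, and 1.74 in PKD rats. Its log2 fold change was 0.93 (adjusted p = 0.0215, standard error 0.322), with wide overlap. *Lgals3* had the largest adjusted p of the 15 genes that passed. It did not pass the exact permutation test (adjusted p = 0.0940) or a fit of the 2 groups alone (0.0606), nor when SD rat 93 (0.80, adjusted p = 0.0593), a further SD rat (0.77, 0.0696), or either of 2 PKD rats (0.86, 0.0531 and 0.77, 0.0705) was left out.

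*Tyrobp*, the signaling adaptor of microglial receptors that include TREM2, was at -0.64, 0.017, and 0.69 in SD rats and at 0.63, 0.80, and 1.12 in PKD rats. *Itgam*, which encodes CD11b of microglia and other myeloid cells, was at -0.53, -0.037, and 0.67 in SD rats and at 0.56, 0.83, and 1.06 in PKD rats. In both genes the overlap lay at the edge of the groups, and the log2 fold changes were 0.85 (adjusted p = 0.00927, standard error 0.255) and 0.83 (adjusted p = 0.00275, standard error 0.214). *Aif1*, which encodes the general microglial marker Iba1, was estimated at 0.12 (95% interval -0.36 to 0.61). *Cd74*, the invariant chain of MHC class II, was estimated at -0.11 (-0.89 to 0.68). *Trem2*, a receptor for lipids on microglia, was estimated at -0.34 (-1.06 to 0.37), opposite in sign to its adaptor *Tyrobp*. A doubling lies outside the intervals of these 3 genes, whereas the interval of *Trem2* includes a level at 0.5 of that in SD rats. The 3 Fc receptors did not pass, with 0.63 for *Fcgr3a*, -0.029 for *Fcgr2a*, and -1.34 for *Fcer2*. *Fcgr2a* was measured late, at a Cq of 31.0 to 32.7 in SD rats and 31.2 to 32.0 in PKD rats. *Fcgr3a* passed without SD rat 99 (0.88, adjusted p = 0.0239).

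In the group of vascular and TNF superfamily genes, 2 of 5 rose, beside 34.1% of all tested genes, and the median log2 fold change was 0.46, near the 0.44 over all. *Tnfrsf12a*, the receptor of the cytokine TWEAK, was at -0.40, -0.0063, and 0.60 in SD rats and at 0.88, 1.01, and 1.58 in PKD rats. The groups did not overlap, and because the spread was small in both strains, a log2 fold change of 1.13 had a standard error of 0.207 (adjusted p = 8.39e-05). *Icam1*, the adhesion molecule that leukocytes bind on endothelium, was at -1.06, 0.15, and 0.74 in SD rats and at 0.68, 1.08, and 1.29 in PKD rats, with a log2 fold change of 1.06 (adjusted p = 0.00134, standard error 0.251). *Vegfa*, the main growth factor of retinal vessels, was among the more tightly estimated genes that did not pass, at -0.18 (95% interval -0.62 to 0.26). *Pgf*, placental growth factor, was estimated at 0.40 (-0.23 to 1.02). *Sphk1*, a kinase that makes sphingosine 1-phosphate, was estimated at 0.46 (adjusted p = 0.1001) and passed without SD rat 99 (0.55, adjusted p = 0.0470).

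None of the tested genes in the groups of pro-inflammatory cytokines and nitric oxide synthase, scavenger and mannose receptors, type 2 response, and TGF-beta and matrix passed the limma test. The medians of their log2 fold changes were 0.081 over 4 genes, 0.064 over 3, 0.22 over 2, and 0.14 over 3, beside 0.44 for all tested genes, or 0.22 without SD rat 93. Of the 26 genes on the card that did not pass, 18 had estimates above 0 and 8 below, 3 had an unadjusted p under 0.05, namely *Il6*, *Sphk1*, and *Fcer2*, and their median log2 fold change was 0.11. The intervals take the 4 reference genes as normalizer and, for each gene, a spread pooled over the 4 groups of the fit. Under these choices, they show how large a change is left possible. SD rats were more variable than PKD rats in 35 of the 41 genes, so the intervals may be too narrow for this comparison. For 14 of the 26 genes, the whole 95% interval lay within 1 log2 unit of 0, and the median width to either side of the estimate was 0.648.

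Among the pro-inflammatory genes, *Tnf* was at -0.68, 0.036, and 0.70 in SD rats and at -0.33, -0.020, and 0.79 in PKD rats. The groups of this cytokine overlapped nearly throughout, and the log2 fold change was 0.11 (95% interval -0.49 to 0.71). Like *Il6*, *Tnf* was measured late, at a Cq of 32.7 to 33.9 in SD rats and 32.9 to 34.4 in PKD rats. *Il18*, a cytokine activated by the inflammasome, was estimated at 0.055 (-0.50 to 0.61). *Il1b*, interleukin 1 beta, was estimated at 0.56 (-0.038 to 1.16), where the exact permutation test gave p = 0.0346 and limma an adjusted p of 0.141. *Nos2*, the inducible nitric oxide synthase, was estimated at -0.60 with a wide interval (-1.62 to 0.43), and the PKD rats alone spanned -2.29 to 0.66.

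The mannose receptors *Mrc1* (CD206) and *Mrc2* were estimated at 0.30 (-0.49 to 1.09) and 0.064 (-0.66 to 0.78), and the scavenger receptor *Stab1* at -0.020 (-0.67 to 0.63). For *Stab1*, both groups had a median within 0.01 of 0. In the type 2 group, *Arg1*, which breaks down arginine in alternatively activated macrophages, was estimated at 0.064 (-0.58 to 0.71) and the cytokine *Il10* at 0.37 (-0.48 to 1.22). *Il10* was also measured late, at a Cq of 31.3 to 34.0 in SD rats and 32.0 to 32.8 in PKD rats. The growth factors *Tgfb1* and *Tgfb2* were estimated at 0.14 (-0.49 to 0.77) and 0.063 (-0.55 to 0.67). *Timp1*, an inhibitor of matrix metalloproteinases, was at -1.47, -0.15, and 1.98 in SD rats and at 0.12, 0.71, and 1.36 in PKD rats. Its log2 fold change of 0.72 (-0.12 to 1.55, adjusted p = 0.173) included SD rat 97, the rat at 1.98, and without this rat it was 1.11 (adjusted p = 0.00771). Without SD rat 93, the rat at -1.47, it was 0.42 (adjusted p = 0.440).

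The remaining genes of the type 2 group, *Chi3l3*, *Retnla*, and *Il13*, and the IgE receptor *Fcer2* had wells without a Cq. A Cq for *Chi3l3* (Ym1) was obtained in 0 of 6 SD and 4 of 6 PKD rats (Fisher's exact test, two-sided, p = 0.0606, adjusted p = 0.242 over the 4 genes with empty wells). *Retnla* (Fizz1) gave a Cq in 0 of 6 SD and 2 of 6 PKD rats (p = 0.455 by Fisher's exact test), and *Il13* in 1 of 6 SD and 3 of 6 PKD rats (p = 0.545). None of these differences passed. The Cq values did not all lie at the end of the run: 3 PKD rats had *Chi3l3* at 27.5, 28.1, and 28.4 and the fourth at 34.97. *Retnla* was at 28.8 and 31.9. *Il13* was at 29.0, 29.1, and 31.3 in PKD rats and at 33.3 in an SD rat. *Fcer2* was obtained in 5 SD and 6 PKD rats. The SD rat with the lowest *Fcer2* Cq was at 29.0, and the other 4 were between 32.1 and 34.1. The log2 fold change of *Fcer2*, -1.34 (-2.64 to -0.041, adjusted p = 0.1001), rested on single SD rats: it was -0.48 (adjusted p = 0.523) without the rat at 29.0, and it passed, at -1.78 (adjusted p = 0.0309), without the rat at 34.1.

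**Figure D3:**
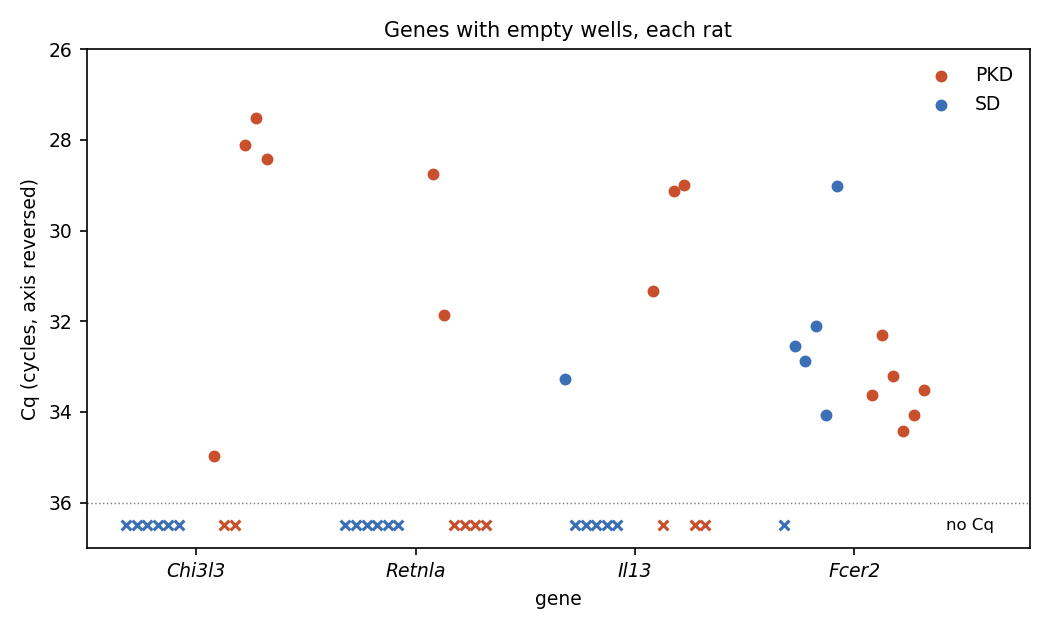
Cq in PCR cycles (vertical axis, reversed so that more RNA is higher) for *Chi3l3*, *Il13*, *Retnla*, and *Fcer2* in the 6 SD and 6 PKD rats, with 1 point per rat that gave a Cq and a cross below the dotted line for each well without one. *Chi3l3* was obtained in 4 PKD rats and in 0 SD rats.

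The SD rats varied more than the PKD rats. The standard deviation of expression was larger in the SD rats for 35 of the 41 genes, with a median of 0.711 beside 0.324 in PKD rats. The ratio was highest for genes that rose: it was 8.36 for *Fgf2* (standard deviation 0.905 in SD and 0.108 in PKD rats), 8.08 for *Lcn2*, 7.10 for *Gfap*, 5.72 for *Edn2*, 5.65 for *C3*, and 4.27 for *Socs3*. The 6 genes with a larger standard deviation in PKD rats were *Nos2*, *Arg1*, *Il18*, *Bdnf*, *Tgfb1*, and *Tgfb2*, of which *Bdnf* was the 1 that had passed. Without SD rat 97, the ratio was 4.03 for *Fgf2*, 2.52 for *Gfap*, and 7.99 for *Lcn2*, and for *Chi3l1* it fell from 1.63 to 0.628. For *Cd74*, which did not pass, the ratio without this rat was 3.51, above that of *Gfap*. The *Lcn2* spread included SD rat 99 at -2.71, with the other SD rats between -0.35 and 1.38. The spread was described and not tested, since the genes share the same 12 rats. When each group was given its own variance weight in limma, 15 genes passed, the same 15.

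**Figure D4:**
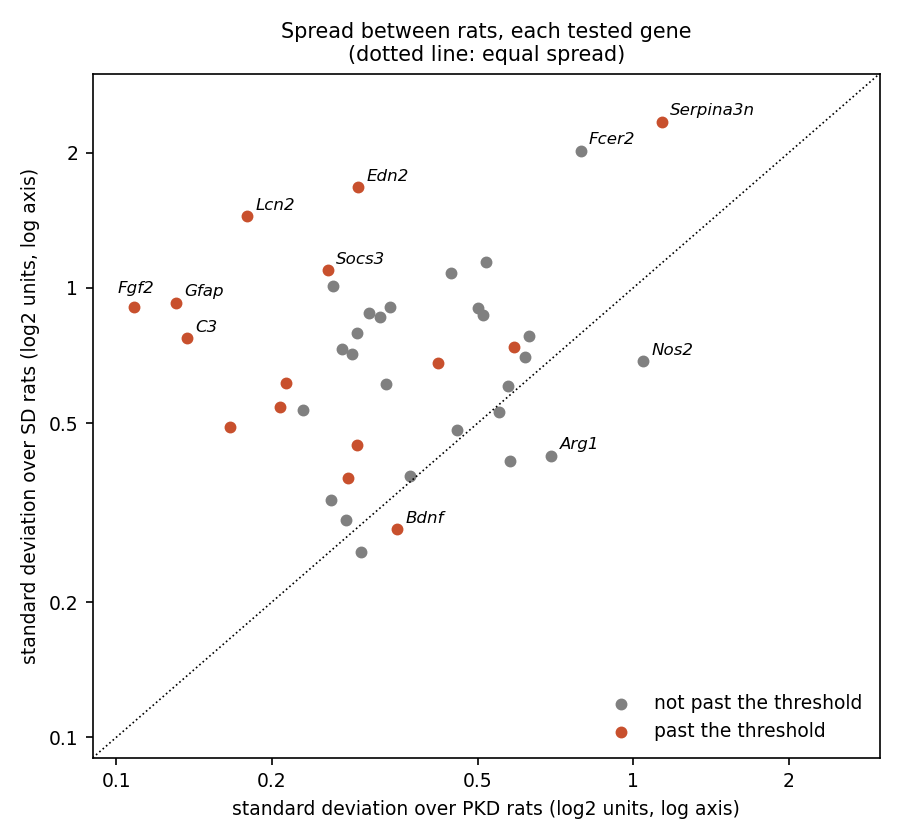
Standard deviation over SD rats (vertical axis) against that over PKD rats (horizontal axis), both in log2 units on log axes, with 1 point for each of the 41 genes (red where the gene passed the test) and a dotted line of equal spread. For 35 genes the point lies above the line, *Fgf2*, *Gfap*, and *Lcn2* the farthest.

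Some of the SD rats stood apart over many genes. SD rat 97 was the highest SD rat in 11 of the 14 genes that rose and in 11 of the 26 that did not pass. In 6 of the 14 genes, namely *C3*, *Chi3l1*, *Cntf*, *Itgam*, *Lgals3*, and *Serpina3n*, it lay within or above the range of the PKD rats. For *Gfap* it was at 1.80, while the other SD rats were between -0.84 and -0.055. Without SD rat 97, 17 genes passed, the 15 and also *Il6* and *Timp1*, the SD rats were still the more variable in 32 of 41 genes, and their median standard deviation was 0.608. SD rat 99 was the highest SD rat in 2 of the 14 genes that rose and in 12 of the 26 that did not pass. Without SD rat 99, 18 genes passed, the 15 and also *Fcgr3a*, *Il6*, and *Sphk1*. SD rat 93 stood apart in the other direction: it was the lowest SD rat in 19 of the 40 genes with a value, and its *18S* Cq was 5.53 where the other SD rats were between 6.68 and 7.19. Without *18S* as a reference, it was the lowest in 14 genes. Without SD rats 93 and 97, a choice made after seeing the data, 17 genes passed, again with *Il6* and *Timp1* added. The part of RNA quality or card in these rats was not tested, because the files give neither per rat.

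The reference genes set the level to which every gene is compared. Their mean Cq was 16.3 ± 0.342 in SD and 16.5 ± 0.221 in PKD rats (standard deviation, n = 6), a difference of 0.16 cycles (exact permutation test, p = 0.344). *18S* RNA was at 6.72 ± 0.608 and 7.10 ± 0.672, and *Mrpl19*, a mitochondrial ribosomal protein, at 23.1 ± 0.441 and 23.3 ± 0.184. *B2m*, the light chain of MHC class I, was reached 0.35 cycles earlier in PKD rats (exact permutation test, p = 0.0584, adjusted p = 0.189 over 5 tests), and *Ywhaz*, a 14-3-3 protein, 0.46 cycles later (p = 0.0758 by exact permutation, adjusted p = 0.189). Set against the other 3 references, *B2m* was 0.69 higher in PKD rats (exact permutation test, p = 0.0260, adjusted p = 0.0606 over the 4 genes) and *Ywhaz* was at -0.39 (p = 0.0303 by exact permutation, adjusted p = 0.0606). These differences were smaller than the changes of the 10 genes that rose by more than 1 log2 unit and close in size to that of *Bdnf* or *Cntf*. With any 1 of the 4 left out, 15 genes passed.

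**Figure D5:**
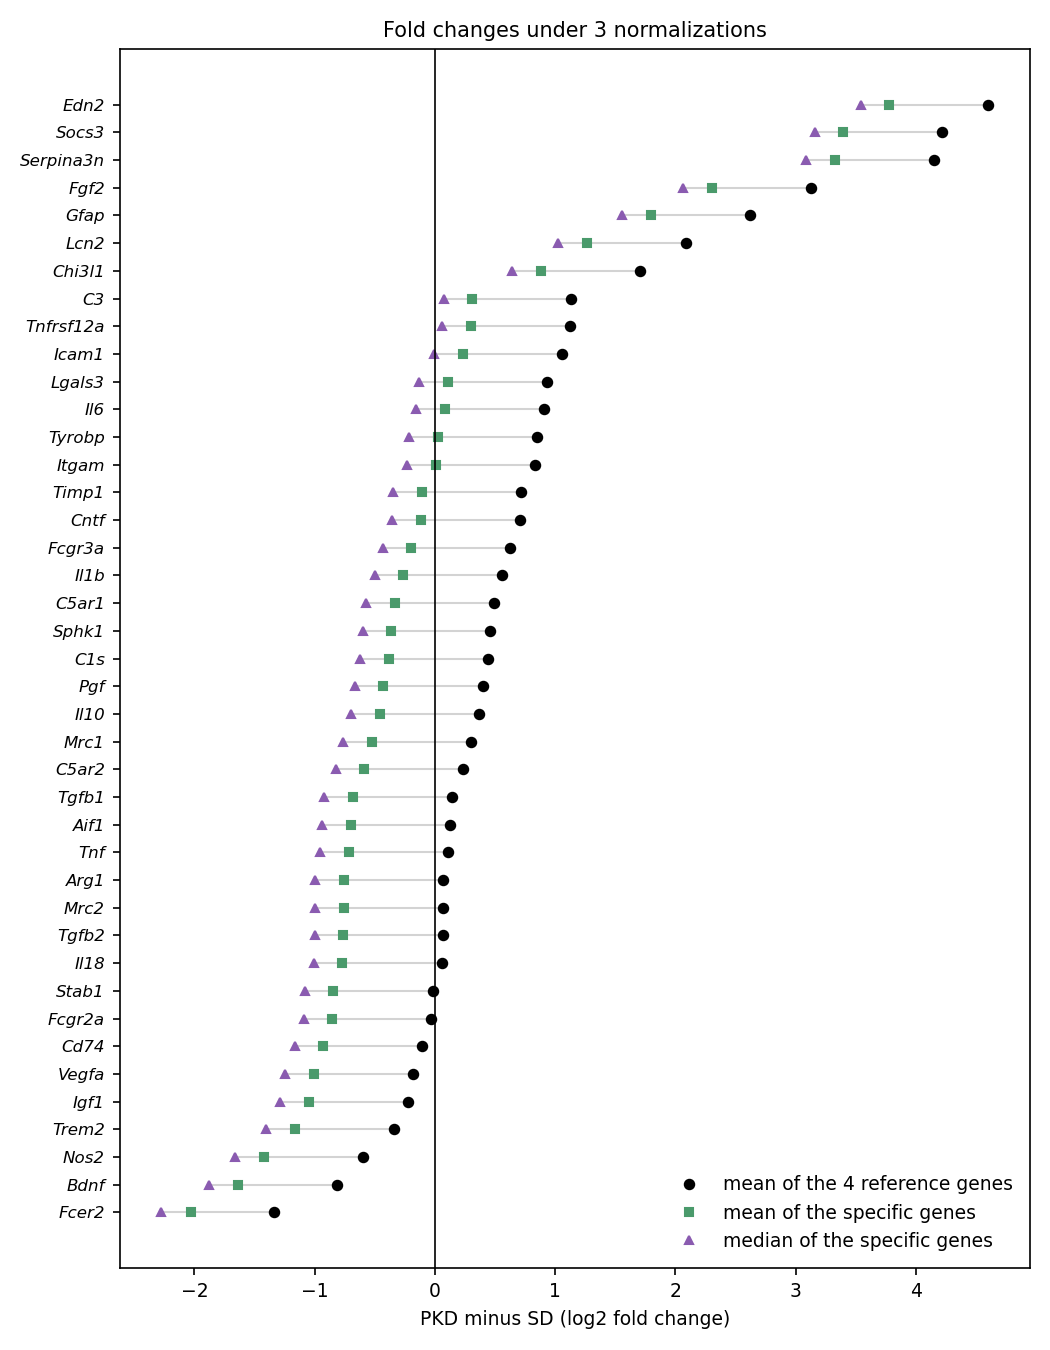
Log2 fold change of PKD over SD rats (horizontal axis) for the 41 genes tested (vertical axis), normalized to the mean of the 4 reference genes (circles), to the mean of the specific genes (squares), or to their median (triangles). The 3 normalizers shift the genes together, and the median of the 41 genes is 0.44, -0.38, and -0.62.

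The direction of small changes rested on this choice. When the mean of the specific genes replaced the references, log2 fold changes moved by about -0.82 for the genes with a Cq in every rat. *Fcer2*, which had an empty well, moved from -1.34 to -2.03. Of the 23 genes that passed with this mean, 16 were lower in PKD rats and 7 higher (30.4% higher, beside 93.3% with the references). The 7 genes were *Edn2*, *Socs3*, *Serpina3n*, *Fgf2*, *Gfap*, *Lcn2*, and *Chi3l1*, and *Bdnf* was among the 16. *C3*, *Cntf*, *Icam1*, *Itgam*, *Lgals3*, *Tnfrsf12a*, and *Tyrobp* no longer passed, with *Cntf* at -0.12. On a card selected for genes of stress and inflammation, a mean of the specific genes contains the genes that rose themselves. The order of the genes with a Cq in every rat cannot change with the normalizer, which shifts them all alike. *Edn2*, *Socs3*, and *Serpina3n* had the highest and *Fcer2*, *Bdnf*, and *Nos2* the lowest log2 fold changes under both.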

How the data were processed

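Retinal RNA with an RNA integrity number above a limit was reverse-transcribed, pre-amplified for 14 cycles, and measured on TaqMan microfluidic cards in a ViiA 7 thermocycler. The authors deposited the Cq of every well, another unit than counts or intensities (PCR cycles), before normalization. A second deposited file of signed fold changes, a ratio of the authors' own comparisons, was not used. Wells were named by matching rows to the Cq list of the study's supplement (48 of 48 wells, tolerance 0.001 cycles). A further 11 columns have no named group and were not used. No label says that the rats came from separate litters, and each gene had 1 well per rat with an unknown copy number. The p-values therefore measure the spread between rats, for limma that of all 23 rats in the fit below.

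Empty wells were omitted. The fit used limma 3.58.1 (lmFit and eBayes) with statmod 1.5.0 in R 4.3.3, over 23 rats in 4 groups with a common estimate of the spread: the 12 rats, 5 PKD + Clodronate and 6 PKD + Controlliposomes rats, injected intravitreally with 3 µl at 4 and 8 weeks of age. In simulated data of 41 genes, 10 of them changed, 67.3% of changes of 1 log2 unit and 97.1% of changes of 2 were recovered. Figures were made in Python 3.11.15 (matplotlib 3.10.9). All 44 specific genes are named, with the value per group and the statistics for those that passed and the estimate for the others. The genes and lists were chosen with earlier results of these data known. The alternatives covered the reference genes, the normalizer, empty and late wells, the form of the test, and each rat left out in turn. Leaving out SD rats 93 and 97 together was added after seeing the data.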

Additional observations from a re-analysis of the deposited data

Results flagged for a closer look

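In 7 of 91 groups of values, counting a gene in a strain as a group, 1 rat lay far from the others by Dixon's criterion at 95%, where chance alone gives 4.55. SD rat 93 accounted for 4 of them. It had *C5ar1* at -1.55, with the other SD rats between 0.036 and 0.72. Its *Fcgr2a* was at -1.76, beside 0.20 to 0.55, and its *Mrc1* at -1.76, beside -0.048 to 0.81. Its *18S* Cq was 5.53, beside 6.68 to 7.19. When *18S* was left out of the reference genes, its *C5ar1*, *Fcgr2a*, and *Mrc1* were at -1.33, -1.54, and -1.54, still below the other SD rats. SD rat 97 had *Gfap* at 1.80, with the other SD rats between -0.84 and -0.055.

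Among the PKD rats, 1 rat had *Tgfb1* at 1.24 where the other 5 were between -0.20 and 0.090. A different PKD rat had *Chi3l3* at -18.57 relative to the reference genes (minus delta Cq), while the other 3 PKD rats with a Cq were between -12.10 and -11.22.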

How the results depend on the processing

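Leaving out each reference gene, dropping the 1 Cq above 35, testing only genes with a Cq in every rat, an ordinary linear model, variance weights per group and a robust prior each left 15 genes past the threshold, with *Bdnf* replaced by *Il6* without *B2m*, where 0 genes were lower. With empty wells at 40 cycles, *Chi3l3* was added (16 of 44). A weight per rat gave 18, and the compared groups alone or the exact permutation test gave 14, without *Lgals3*. Leaving out 1 rat gave 14 to 18 genes, 13 to 17 higher and 1 to 2 lower.

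The mean of the specific genes as normalizer gave 23 genes, 7 higher and 16 lower, with a median log2 fold change of -0.38. The median of the specific genes gave 28, 6 higher and 22 lower (21.4% higher), with a median of -0.62. By construction both shift every gene, here by -0.82 and -1.06 at the median. Under the mean, 18 genes changed sign. Those past the threshold in either fit were *Aif1* (-0.70), *Arg1* (-0.76), *Cntf* (-0.12), *Il18* (-0.77), *Mrc2* (-0.76), *Tgfb1* (-0.68), *Tgfb2* (-0.76), and *Tnf* (-0.72). The other 10 lay between -0.59 and -0.11. Under the median, 23 genes changed sign. Those past the threshold in either fit were *Aif1* (-0.94), *Arg1* (-0.9986), *C1s* (-0.62), *C5ar1* (-0.57), *C5ar2* (-0.83), *Cntf* (-0.36), *Icam1* (-0.0074), *Il18* (-1.01), *Itgam* (-0.23), *Lgals3* (-0.13), *Mrc1* (-0.77), *Mrc2* (-0.9989), *Pgf* (-0.67), *Sphk1* (-0.60), *Tgfb1* (-0.92), *Tgfb2* (-0.9996), *Tnf* (-0.96), and *Tyrobp* (-0.21). The other 5, *Fcgr3a*, *Il10*, *Il1b*, *Il6*, and *Timp1*, lay between -0.70 and -0.16. In all, 1014 of 1147 recomputed gene values kept their direction and side of the threshold, and 62 changed sign without passing. A weight per rat moved *Fcgr3a* to 0.96 (limma, adjusted p = 0.00838).

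The number of PKD minus SD rats with a *Chi3l3* Cq was 3 to 4 when a rat was left out. Leaving out either PKD rat that lacked it necessarily lowers the p, here to 0.0152 by Fisher's exact test, unadjusted. No paired analysis was possible because the columns carry animal numbers and no replicate numbers of the labels. In simulated data, 67.3% of changes of 1 log2 unit were recovered, and smaller changes were not simulated. RNA quality, litter and card per rat were not given in the sources used here.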
